A study of Mus musculus with 23 samples.

Results

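Hearts of MR-Cardio mice given aldosterone were compared with hearts of untreated control mice, so that receptor excess and hormone were present together on one side and both absent on the other. The samples were chosen by their titles, 6 of treated MR-Cardio hearts and 5 of untreated control hearts, which makes 11 of the 23 arrays of the series. MR-Cardio mice are transgenic and overexpress the mineralocorticoid receptor in cardiomyocytes, and the controls are non-transgenic. Every mouse was male, the RNA came from the ventricles, and the labels give 7 days as the duration for all mice, the untreated ones included. The other 12 arrays come from 7 untreated MR-Cardio hearts and 5 control hearts given aldosterone, and they were used to place the joint difference beside its single steps. The labels name neither the promoter that drives the transgene, nor the species of the receptor it encodes, nor the dose and route of aldosterone, nor the age of the mice.

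The mineralocorticoid receptor is a nuclear receptor of the steroid family that moves to the nucleus and regulates genes when it binds aldosterone or a glucocorticoid. In kidney epithelium it controls sodium retention, and there the enzyme 11beta-hydroxysteroid dehydrogenase type 2 inactivates glucocorticoids before they reach the receptor. Cardiomyocytes hold little of that enzyme, so in the heart the receptor is thought to be occupied largely by glucocorticoids, and excess receptor activity there is known for arrhythmia, fibrosis and remodelling. Every value below is a log2 ratio of heart RNA over reference RNA on the same array, the reference being pooled from spleen, kidney, heart, brain and liver. A difference is the mean of the treated MR-Cardio mice minus the mean of the untreated controls. Levels of different genes are not set against each other, because each gene's ratio also depends on its amount in the pool.

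The 23 arrays had medians between -0.04 and 0.12, and the lowest correlation between a pair of arrays was 0.855. Both were taken over the 39429 probes other than controls, unnamed ones included. The spike-in probes showed an array difference that followed genotype: their slope was 1.0028 to 1.0292 in treated MR-Cardio arrays and 0.9718 to 0.9746 in untreated control arrays (exact permutation test, two-sided p = 0.00433, the smallest that 6 against 5 arrays allow). The spike-in offset averaged -0.152 and 0.121 in the same groups (exact permutation test, two-sided p = 0.0606). It lay below -0.3 in 5 of the 23 arrays, called arrays of low offset below. They are those of untreated MR-Cardio mice 3, 4 and 7 and of treated MR-Cardio mice 4 and 6. Among 12 liver genes that a heart should hardly express, 11 were lower in the treated MR-Cardio arrays, with a median difference of -0.89, against 0 higher. In untreated MR-Cardio arrays the spike-in slope was 1.0084 to 1.0281, and in control arrays with aldosterone 0.9641 to 0.9818. The array difference and genotype thus cannot be told apart in any comparison of MR-Cardio with control mice, at strongly negative ratios or at others. Adding aldosterone to MR-Cardio mice changed 0 of these 12 liver genes, with a median of 0.02, against 1.43% of all genes called.

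The receptor transcript itself separated the groups. Nr3c2, which encodes the mineralocorticoid receptor, read 0.55, 0.48, 0.18, 0.47 and 0.48 in the untreated controls and ran from 2.54 through a median of 4.08 to 4.83 in the treated MR-Cardio mice. The lowest treated MR-Cardio mouse stood well above the highest control. The difference was 3.53 ± 0.35 (SE), or 11.6-fold, with a limma adjusted p = 5.02e-07. In untreated MR-Cardio mice Nr3c2 averaged 3.21 ± 0.72 (SD, n = 7), and adding aldosterone moved it by 0.75 ± 0.32 (SE, adjusted p = 0.27). The labels' genotype was thus matched by the targeted transcript on every array of both groups.

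Fkbp5, the co-chaperone that restrains steroid receptors and is a standard corticosteroid target, rose with it. The controls read -0.08, 0.13, -0.13, -0.01 and -0.16, and the treated MR-Cardio mice 2.52 to 3.89 with a median of 3.30, without overlap. The difference was 3.33 ± 0.26 (SE), 10.1-fold, at an adjusted p = 1.75e-08. Lcn2, the iron-carrier lipocalin that aldosterone induces in heart and vessels, rose 7.60-fold, by 2.93 ± 0.22 (SE, adjusted p = 1.75e-08). Lcn2 was one of the genes for which the hormone step alone also passed in MR-Cardio mice (1.00, adjusted p = 0.0154), whereas Fkbp5 moved by 0.23 in that step (adjusted p = 0.73).

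Not every corticosteroid target moved. Tsc22d3, the glucocorticoid-induced leucine zipper, differed by 0.03 ± 0.17 (SE, adjusted p = 0.925) and Sgk1, the kinase that aldosterone induces in kidney, by -0.31 ± 0.17 (SE, adjusted p = 0.185). The glucocorticoid receptor gene Nr3c1 differed by -0.09 ± 0.06 (SE, adjusted p = 0.283) and Hsd11b2, which encodes the enzyme that protects the receptor from glucocorticoids, by -0.76 ± 0.31 (SE, adjusted p = 0.0706). For these 4 genes the ranges of the 2 groups overlapped. Hsd11b2 passed without treated mouse 4 and without the 5 arrays of low spike-in offset, and Nr3c1 passed when its most variable probe stood for the gene.

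Myh7, the slow beta isoform of the myosin heavy chain that returns in stressed mouse ventricles, read -3.49, -3.00, -3.87, -3.18 and -1.72 in untreated controls. Treated MR-Cardio mice lay between -0.22 and 0.18 with a median of 0.10. All 6 treated mice sat above all controls and within a narrow band, while untreated MR-Cardio mice spread from -3.23 to 0.18. The joint difference was 3.10 ± 0.52 (SE), 8.60-fold, at an adjusted p = 0.000147, and Myh6, the adult alpha isoform, differed by -0.27 ± 0.20 (SE, adjusted p = 0.358).

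Ccn2, the matricellular protein also called connective tissue growth factor, read -0.16, 0.02, -0.01, -0.42 and 0.24 in untreated controls. The treated MR-Cardio mice ran from 1.89 through 3.32 to 4.05. The groups did not overlap, and the difference was 3.18 ± 0.56 (SE), 9.05-fold, at an adjusted p = 0.000276. Untreated MR-Cardio mice differed from untreated controls by 1.38 (adjusted p = 0.0973), and the hormone step in MR-Cardio mice was 1.80 (adjusted p = 0.0866). With aldosterone on both sides, MR-Cardio mice were higher than controls by 2.94 ± 0.56 (SE, adjusted p = 0.000644). The departure of Ccn2 from the sum of the single effects was 1.56 ± 0.79 (SE, adjusted p = 0.922).

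**Figure D1:**
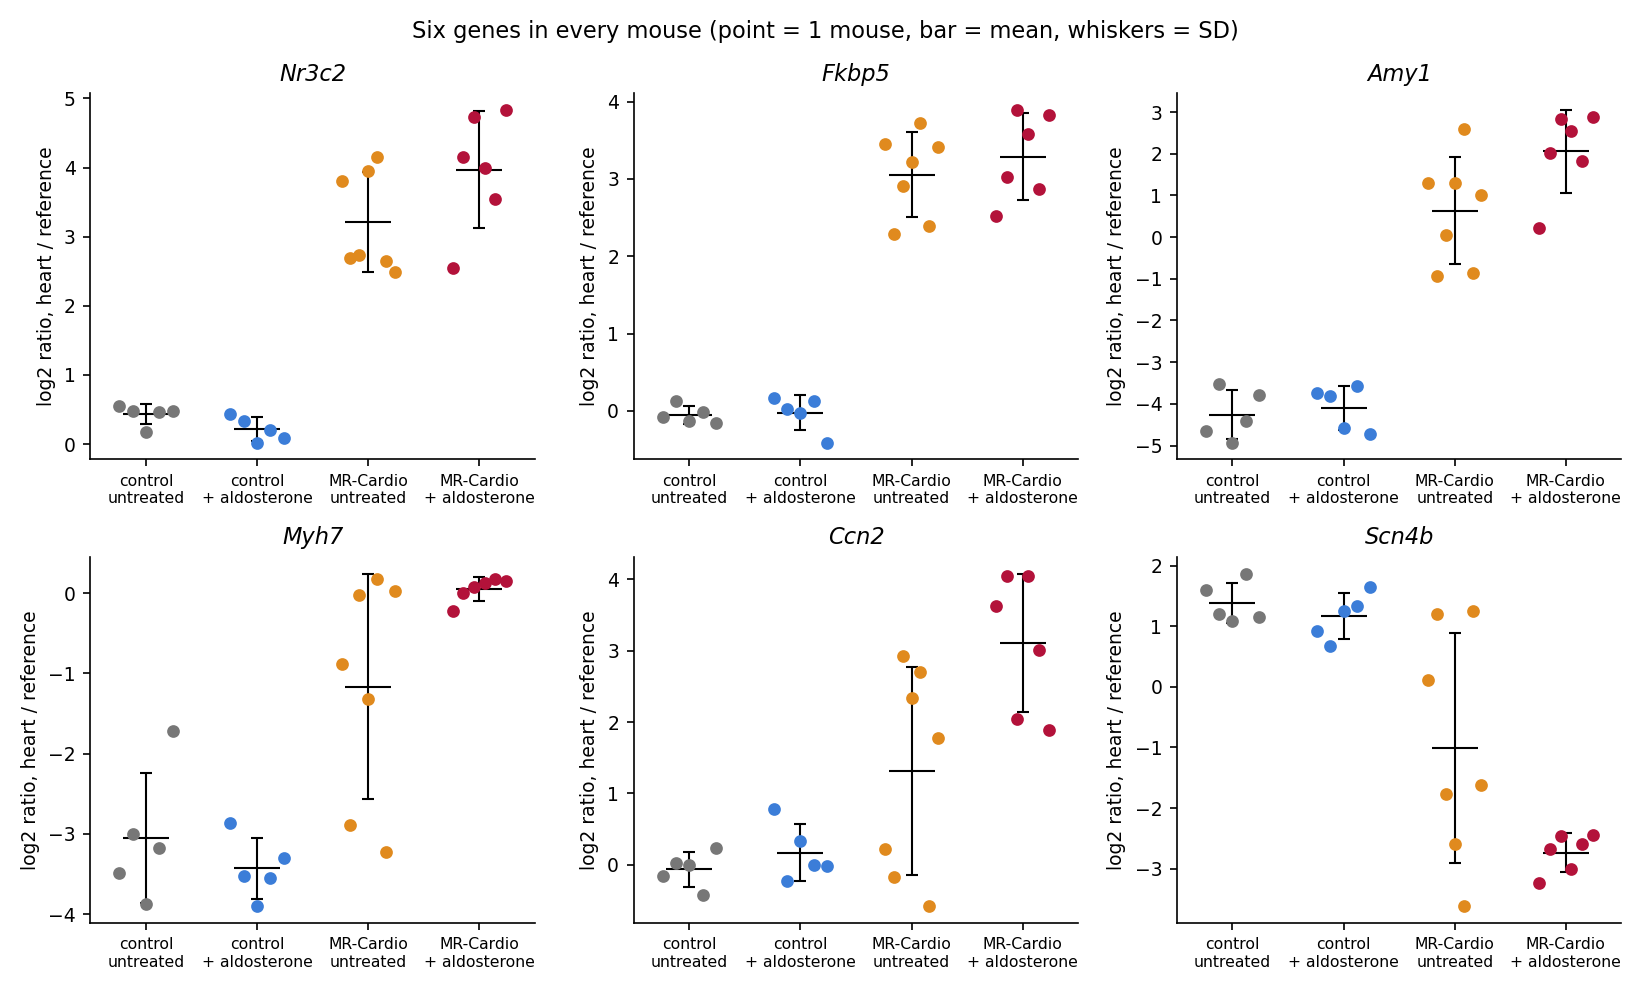
Log2 ratio of heart over reference RNA for Nr3c2, Fkbp5, Amy1, Myh7, Ccn2 and Scn4b in each mouse of the 4 groups (points), with the group mean (bar) and its SD (whiskers). For all 6 genes the treated MR-Cardio mice lie clear of the untreated controls, and for Myh7, Ccn2 and Scn4b the untreated MR-Cardio mice spread across most of the distance between them, for Scn4b from -3.62 to 1.25.

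Across the 21892 named genes, 6362 passed an adjusted p of 0.05 in the joint comparison, which is 29.1% of all. Of these, 2912 were higher (13.3%) and 3450 lower (15.8%) in treated MR-Cardio hearts. A difference of at least 1 log2 unit was reached by 1349 of the called genes (6.16% of those tested), 757 of them higher and 592 lower. The values of all 6 treated MR-Cardio mice lay above all 5 controls for 1501 genes (6.86%) and below them for 2102 (9.60%). The median difference over all genes was -0.03.

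The single steps, which share mice with the joint comparison, called fewer genes. Steps that set MR-Cardio against control mice, like the joint comparison, also cross the difference in spike-in slope, and the steps that add aldosterone do not. Untreated MR-Cardio hearts differed from untreated controls in 2978 genes (13.6%), 1267 higher (5.79%) and 1711 lower (7.82%). MR-Cardio hearts with aldosterone differed from MR-Cardio hearts without it in 314 genes (1.43%), 208 higher (0.950%) and 106 lower (0.484%). These 314 became 199, 152 and 138 without treated mice 1, 2 and 4, and 0 when only the 2 groups were fitted. Without the 5 arrays of low spike-in offset the 2978 calls of untreated MR-Cardio hearts became 1086. That fit leaves out untreated MR-Cardio mice 3, 4 and 7. With aldosterone on both sides, MR-Cardio hearts differed from controls in 5487 genes (25.1%). In control mice aldosterone alone called 0 genes (0.00%) by limma, the smallest adjusted p being 0.513. An unadjusted p under 0.05 was reached by 1036 genes, about as many as chance alone would pass. When only these 2 groups were fitted, the hormone alone called 8 genes.

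The 15 largest rises included 2 amylases, a transcriptional co-regulator, a fatty acid receptor, a potassium channel and 2 fast skeletal troponins. Amy1, an amylase that digests starch, read -4.66, -3.52, -4.93, -4.40 and -3.78 in the controls and 0.23 to 2.88 in the treated MR-Cardio mice, with a median of 2.28. No control came within several log2 units of the lowest treated mouse, and the difference was 6.31 ± 0.55 (SE), or 79.6-fold (adjusted p = 8.38e-08). The related pancreatic amylase gene Amy2a5 read -5.37, -4.84, -5.57, -5.30 and -4.75 against -2.48 to 0.29, a rise of 4.59 (24.1-fold). Amy1 and Amy2a5 are close in sequence, so a probe for either may read both, and how the rise divides between them is uncertain.

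Cited1, a transcriptional co-regulator, read 0.85, -0.44, -0.75, -0.10 and -0.34 in the controls and 4.60 to 6.38 with a median of 5.66 in the treated MR-Cardio mice. It had no overlap and rose by 5.78 ± 0.33 (SE, 54.8-fold, adjusted p = 2.89e-10). Ffar4, a membrane receptor that senses long-chain fatty acids, read -0.17, -0.23, -0.71, -0.13 and 0.01 against 3.43 to 6.62 with a median of 5.35, a rise of 5.49 ± 0.40 (SE, 44.9-fold, adjusted p = 7.8e-09). For both genes the untreated MR-Cardio mice were already high, by 5.27 for Cited1 and 5.12 for Ffar4.

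Plpp4, a phospholipid phosphatase, read -2.14, -2.60, -2.86, -2.78 and -2.18 in the controls and 1.89 to 3.73 with a median of 2.72 in the treated MR-Cardio mice, a rise of 5.37 (41.4-fold). Kcnk1, a potassium channel of the TWIK family, read -4.81, -4.81, -5.54, -4.58 and -3.92 against -0.66 to 1.38 with a median of 0.67, a rise of 5.30 ± 0.32 (SE, 39.4-fold, adjusted p = 5.3e-10). Neither gene's groups overlapped. Klk1b16, one of the closely related kallikrein proteases, read -4.23, 1.02, 1.53, 0.61 and 1.02 against 1.89 to 7.58 with a median of 5.89. It rose by 5.15 ± 1.13 (SE, adjusted p = 0.00172) with 1 control far below the other 4. Kallikrein genes of this family are close in sequence, so which of them its probe read is uncertain.

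Parts of the fast skeletal troponin complex were among the leading genes. Tnnt3, fast skeletal troponin T, read 0.76, 1.79, 0.87, 1.44 and 0.92 in the controls and 5.04 to 7.22 with a median of 6.27 in the treated MR-Cardio mice, a rise of 5.08 (33.9-fold). Tnni2, fast skeletal troponin I, rose by 4.42 (21.3-fold). Both were clear of the controls in every treated mouse.

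Enzymes of cofactor, amino acid and one-carbon chemistry came next. Nmrk2, the muscle kinase that makes NAD precursor from nicotinamide riboside, read 1.64, 3.01, 3.21, 1.81 and 3.00 against 6.80 to 7.51 with a median of 7.22, a rise of 4.66 ± 0.71 (SE, 25.2-fold). Slc25a18, a mitochondrial glutamate carrier, read -4.15, -3.10, -3.82, -4.11 and -3.33 against -0.45 to 2.32 with a median of 1.00, a rise of 4.64 (24.9-fold). Mthfd2, a mitochondrial folate enzyme of growing cells, rose by 4.20 (18.4-fold). For Slc25a18 and Mthfd2 the untreated MR-Cardio mice differed from controls by 4.63 and 4.19, close to the joint values, whereas for Nmrk2 that step was 2.65. Rspo4, an R-spondin that strengthens Wnt signals, rose by 4.59 ± 0.52 (SE, 24.1-fold), of which 1.99 came in the hormone step (adjusted p = 0.0373). The other 2 of the 15 were Zfp185 at 4.45 (21.8-fold) and Lox, the enzyme that crosslinks collagen and elastin, at 4.19 (18.3-fold).

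Among the falls, a pair of genes best known from sperm formation led. Sun3, a nuclear envelope protein, read 1.65, 1.95, 0.83, 1.22 and 1.93 in the controls and -4.04 to -2.60 with a median of -3.75 in the treated MR-Cardio mice. It fell 31.8-fold, a difference of -4.99 ± 0.54 (SE, adjusted p = 1.53e-06), and the hormone step in MR-Cardio mice carried -2.82 of it (adjusted p = 0.00875). Meig1 read 2.90, 2.10, 2.58, 3.18 and 1.79 against -3.71 to -0.90 with a median of -2.33, a difference of -4.89 ± 0.79 (SE, 29.6-fold lower). No treated mouse reached the lowest control for either gene.

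Scn4b, a beta subunit of the voltage-gated sodium channel, read 1.60, 1.21, 1.09, 1.87 and 1.16 in the controls and -3.24 to -2.44 with a median of -2.63 in the treated MR-Cardio mice. The difference was -4.12 ± 0.64 (SE, 17.4-fold lower, adjusted p = 7.59e-05). Its SD was 0.32 in the treated MR-Cardio mice and 1.90 in the untreated ones, which reached from the control range to below the treated range. The hormone step of -1.73 did not pass (adjusted p = 0.15).

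Kcnv2, a silent subunit that modifies potassium channels, read 3.81, 4.66, 2.55, 3.83 and 4.36 in the controls against -0.93 to 0.72 with a median of 0.31, a difference of -3.68 ± 0.53 (SE, 12.8-fold lower). Eprn read 2.76, 1.41, 1.25, 1.40 and 1.82 against -2.91 to -0.48 with a median of -2.18, a difference of -3.79 (13.8-fold lower). For both genes the groups were separate. Beside Sun3, 4 of the 15 largest falls passed in the hormone step, namely Kcnv2 (-2.31, adjusted p = 0.0173), Cib3 (-2.31, adjusted p = 0.00764), Cpxm2 (-1.93, adjusted p = 0.00875) and Mrgprh (-1.94, adjusted p = 0.0207).

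The remaining large falls were Hs3st5, a heparan sulfate sulfotransferase, at -3.67, Gnb3, a G protein beta subunit, at -3.42, Dct, an enzyme of melanin synthesis, at -3.41, and Armc2 at -3.25. Lgi1 fell by 3.22, with its probes at -4.45 and -2.0. Tmprss4, a membrane serine protease, differed by -3.23 ± 1.12 (SE, adjusted p = 0.035), but its groups overlapped, and leaving out 1 mouse at a time ended the call for 7 of the 11 mice. Hamp2, a hepcidin gene, differed by -3.04 ± 0.82 (SE, adjusted p = 0.00785), also with overlap, because 1 control read -2.16 while the control median was 2.25.

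**Figure D2:**
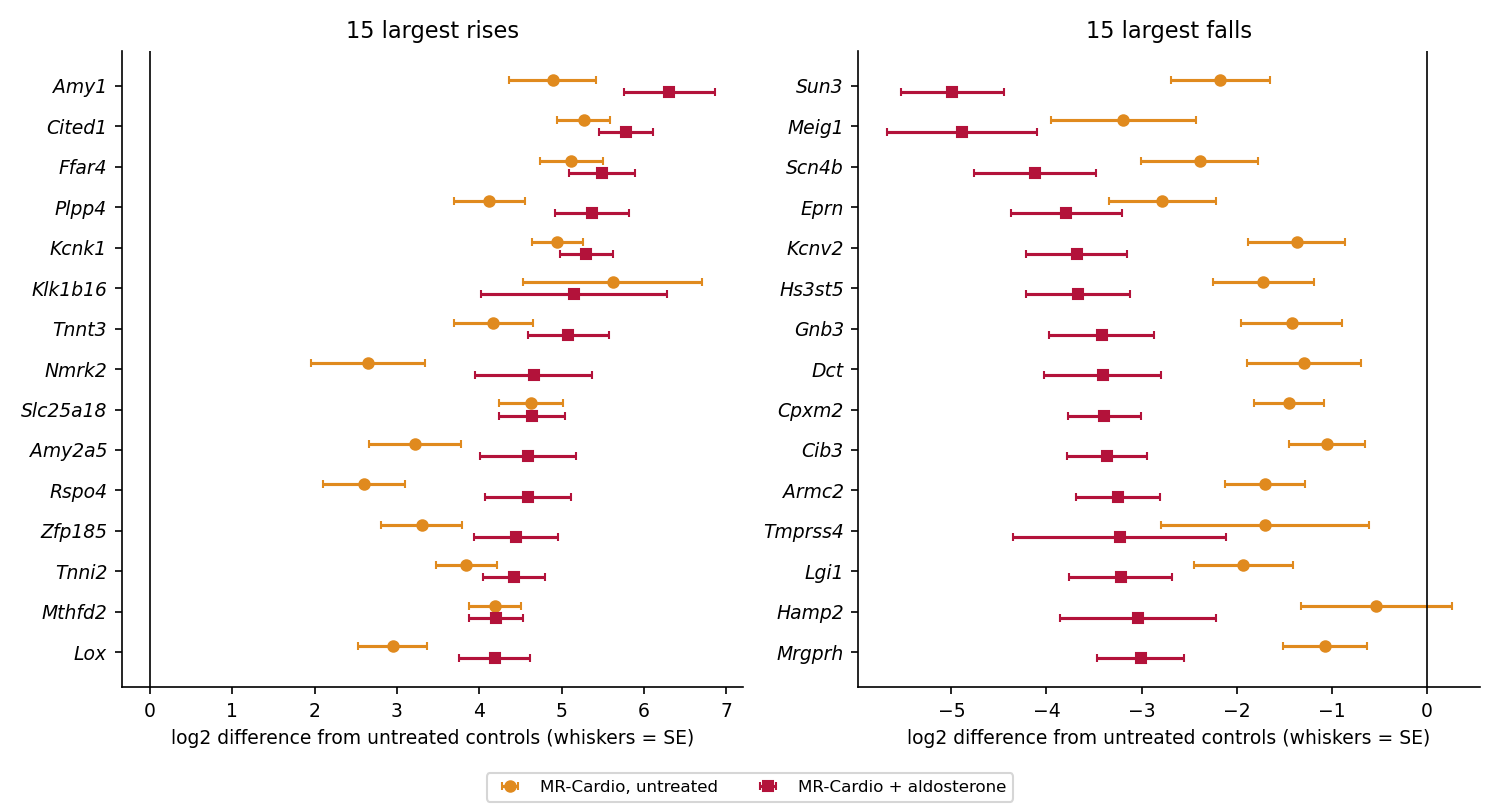
Log2 difference from untreated controls for the 15 largest rises and 15 largest falls, in untreated MR-Cardio mice (orange circles) and in MR-Cardio mice given aldosterone (red squares), with the SE as whiskers. Mthfd2, at 4.19 and 4.20, shows both symbols at one place, and Sun3, at -2.17 and -4.99, shows them far apart.

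Promoters of these 30 genes were searched for the corticosteroid response element, the sequence to which the receptor is known to bind as a dimer. The window ran from 250 bases before to 50 bases after each gene start in the RefSeq table (GRCm38.p6), and 12 of the 15 rises and 11 of the 15 falls were found there with 15 and 14 promoters. The whole element, the hexamer AGAACA followed after 3 bases of any kind by TGTTCT, was in 0 of the 15 and 0 of the 14 promoters, and in 3 of all 32851 (0.00913%). Its TGTTCT hexamer, on either strand, was in 4 of 15 promoters of rises (26.7%), in 5 of 14 of falls (35.7%) and in 6233 of all promoters (19%). A match here describes letters, not a binding site. The 3 promoters printed are those of 1 of the 2 Amy1 starts in the table, with 3 hexamers starting at -208, -136 and -55, of Amy2a5, with 1 at -8, and of Scn4b, with 1 at -146. The other Amy1 promoter, at chr3:113574713-113575012, had 1 hexamer at -242. Positions count from the gene start, sequences run 5' to 3' on the gene's strand, and capitals mark the hexamer in either orientation.
Amy1, chr3:113577701-113578000, minus strand: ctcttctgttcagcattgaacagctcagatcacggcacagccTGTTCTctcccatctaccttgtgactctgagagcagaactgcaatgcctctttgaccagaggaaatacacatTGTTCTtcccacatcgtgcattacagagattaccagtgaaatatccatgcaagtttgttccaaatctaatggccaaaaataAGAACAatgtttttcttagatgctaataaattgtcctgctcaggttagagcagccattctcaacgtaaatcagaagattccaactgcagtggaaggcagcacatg
Amy2a5, chr3:113258650-113258949, minus strand: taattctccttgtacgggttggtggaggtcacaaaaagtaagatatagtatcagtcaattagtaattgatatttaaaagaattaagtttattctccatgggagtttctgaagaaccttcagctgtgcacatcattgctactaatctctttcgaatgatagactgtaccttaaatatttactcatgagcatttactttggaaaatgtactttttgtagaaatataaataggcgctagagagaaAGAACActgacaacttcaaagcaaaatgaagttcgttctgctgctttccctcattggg
Scn4b, chr9:45138374-45138673, plus strand: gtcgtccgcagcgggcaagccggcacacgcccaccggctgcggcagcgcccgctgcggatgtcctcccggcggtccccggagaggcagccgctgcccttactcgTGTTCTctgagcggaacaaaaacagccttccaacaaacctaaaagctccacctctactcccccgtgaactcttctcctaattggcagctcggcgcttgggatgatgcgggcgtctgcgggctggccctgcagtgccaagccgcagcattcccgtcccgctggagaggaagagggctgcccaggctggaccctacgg

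Lists of genes by pathway and cell type, drawn up with earlier results of these data known, were read from the fit over all genes. A list is described by how many of its measured members passed in each direction, beside 13.3% higher and 15.8% lower for all genes, and by its median difference beside -0.03.

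**Figure D3:**
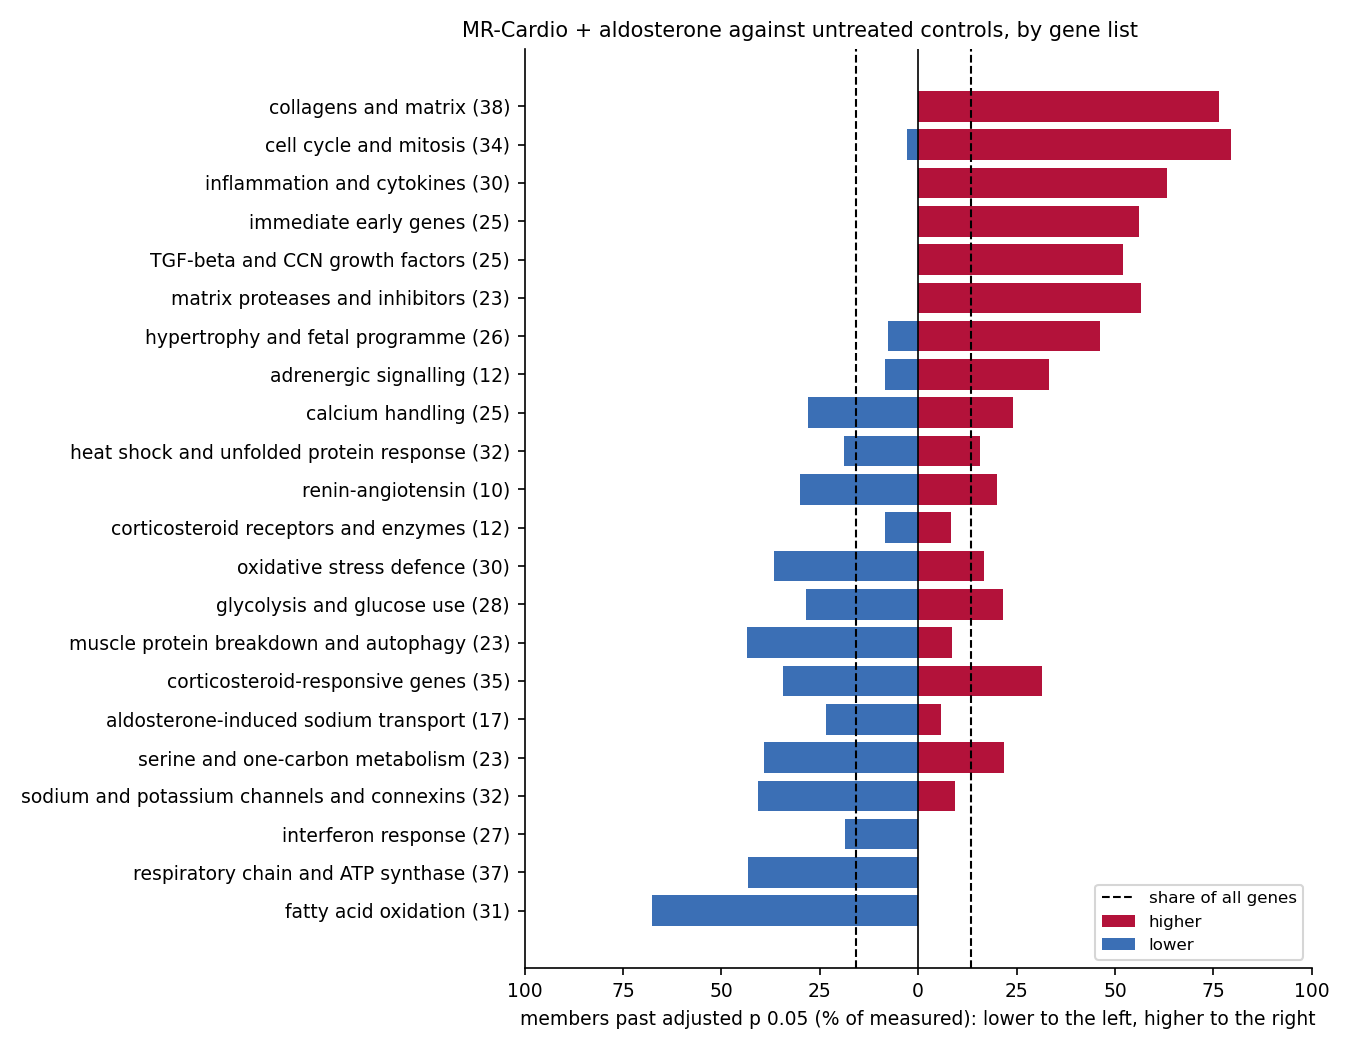
Share of measured members higher (right) and lower (left) in treated MR-Cardio than in untreated control hearts for 22 pathway lists, ordered by median difference, in percent. Dashed lines mark the shares of all genes, 13.3% and 15.8%. Collagens and matrix (29 of 38 higher) and cell cycle (27 of 34 higher) stand at one end and fatty acid oxidation (21 of 31 lower) at the other.

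Of 26 hypertrophy and stress genes, 12 rose, 2 fell and 12 did not pass, with a median of 0.41. Nppb, the B-type natriuretic peptide of stretched ventricle, read 2.13, 1.00, 2.58, 1.74 and 0.90 in the controls against 2.94 to 4.52 with a median of 4.31. Its groups were separate, and it rose 4.87-fold, by 2.28 ± 0.55 (SE, adjusted p = 0.00374). Nppa, the atrial natriuretic peptide, read -1.26, 0.27, -1.34, 0.08 and -1.14 against 0.08 to 1.68 with a median of 1.40, and it rose 3.41-fold with 1 treated mouse inside the control range. Tnnt1, slow skeletal troponin T, rose by 3.03 ± 0.40 (SE), and Xirp1, an actin-binding protein of intercalated discs, by 1.15 ± 0.15 (SE). Rcan1, the calcineurin regulator, rose by 1.47 ± 0.24 (SE), most of it in the hormone step (1.22, adjusted p = 0.00875). Acta1, skeletal alpha-actin, differed by 0.31 ± 0.34 (SE, adjusted p = 0.544) and Ankrd1, the cardiac ankyrin repeat protein, by 0.58 ± 0.22 (SE, adjusted p = 0.0553), so the usual stress markers did not all pass (both were looked up after the values were seen).

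Collagens and matrix genes moved one way. Of 38 measured, 29 rose, 0 fell and 9 did not pass, with a median of 1.27. For 21 of the 38 all treated mice lay above all controls, against 6.86% of all genes. In RNA of whole ventricle, a change in the number of cells of one type and a change in RNA per cell cannot be told apart. Thbs1, the matrix protein that activates latent TGF-beta, rose by 2.59 ± 0.48 (SE), Mfap5, a microfibril protein, by 1.34 ± 0.27 (SE) and Col18a1, the basement membrane collagen, by 0.62 ± 0.12 (SE). The fibrillar collagen genes Col1a1 (1.99 ± 0.61 SE, adjusted p = 0.0172) and Col3a1 (2.06 ± 0.57 SE, adjusted p = 0.00994) rose too, but neither passed with the spike-in offset as a covariate. Col1a1 overlapped between groups, since the treated MR-Cardio mice ran from 0.19 to 4.09 and the highest control read 0.34. Postn, the periostin of activated fibroblasts, picked after its values were seen, rose by 2.83 ± 0.78 (SE, adjusted p = 0.00918), also with overlap.

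The mean over the matrix list was 0.20, 0.68, 0.49, 0.35 and 0.36 in the controls and 3.02, 1.70, 1.09, 1.64, 2.08 and 0.79 in the treated MR-Cardio mice 1 to 6. All 6 treated mice lay above all controls. The count of 29 became 17 with the spike-in offset of each array as a covariate. It became 31 without the 5 arrays of low spike-in offset. In untreated MR-Cardio mice 7 of the 38 matrix genes rose, with a median of 0.87, against 5.79% of all genes. In the hormone step, whose median was 0.43, 0 passed, against 1.43% of all genes. That 0 became 9 without the 5 arrays of low spike-in offset and 2 without treated mouse 3 or treated mouse 6. Untreated MR-Cardio mice 3, 4 and 7, whose arrays had low offsets, had matrix means of 2.26, 1.98 and 1.8. The other untreated MR-Cardio mice had 0.41 to 1.32. Treated mice 4 and 6, also of low offset, had 1.64 and 0.79.

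TGF-beta and CCN family genes gave 13 rises and 0 falls of 25, with a median of 0.52. Inhba, the activin subunit, rose by 2.25 ± 0.33 (SE), Tgfbr1, the TGF-beta type I receptor, by 1.06 ± 0.19 (SE; not past the threshold by its most variable probe) and Bmp2, a bone morphogenetic protein, by 0.61 ± 0.09 (SE). Proteases and their inhibitors gave 13 rises and 0 falls of 23, also with a median of 0.52. Timp1, the secreted metalloproteinase inhibitor, rose by 2.92 ± 0.54 (SE), Adamts4, an aggrecan-cleaving protease, by 2.04 ± 0.39 (SE) and Adam15, a membrane disintegrin, by 0.53 ± 0.09 (SE). Mmp3, the metalloproteinase stromelysin, picked after its values were seen, rose by 2.90 ± 0.74 (SE), with overlapping groups.

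Fibroblast markers, some of which are also matrix genes, gave 11 rises and 0 falls of 16, with a median of 0.89. Vim, the intermediate filament of mesenchymal cells, rose by 1.23 ± 0.23 (SE), Dpt, dermatopontin, by 0.73 ± 0.16 (SE) and Pdgfra, the growth factor receptor that marks resting cardiac fibroblasts, by 0.77 ± 0.17 (SE). The marker mean was 0.72 to 1.35 in the controls and 2.72, 2.16, 1.55, 2.07, 2.31 and 1.32 in the treated MR-Cardio mice. Mouse 6 alone lay within the control range. With the spike-in offset as a covariate 7 markers rose, and 14 rose without the 5 arrays of low spike-in offset. In untreated MR-Cardio mice 3, 4 and 7, of low offset, the marker mean was 2.71, 2.32 and 2.35. The other untreated MR-Cardio mice had 0.99 to 1.83.

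Inflammation and adhesion genes gave 19 rises, 0 falls and 11 that did not pass, of 30, with a median of 0.69. The 19 became 13 without control 4 or treated mouse 1, with the offset covariate and with the 2 groups fitted alone. It became 15 without the 5 arrays of low spike-in offset and 20 without control 2. Ptx3, the pentraxin made by vessel and stromal cells, ran from -0.45 to -0.07 in the controls and from 2.68 to 4.76 in the treated MR-Cardio mice, a rise of 3.72 ± 0.47 (SE). Ccl2, the monocyte chemoattractant, rose by 1.58 ± 0.25 (SE), Vcam1, the vascular adhesion molecule, by 1.22 ± 0.20 (SE) and Sele, endothelial E-selectin, by 0.87 ± 0.15 (SE). Sele passed in the hormone step (0.81, adjusted p = 0.00789) and differed by 0.06 between untreated MR-Cardio and control mice. Il6, the cytokine interleukin 6, picked after its values were seen, rose by 3.59 ± 0.66 (SE).

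Immediate early genes, the transcription factors that answer stimuli within minutes, gave 14 rises and 0 falls of 25, with a median of 0.62. Egr2 rose by 3.11 ± 0.51 (SE), Nr4a1, an orphan nuclear receptor, by 2.11 ± 0.41 (SE), Fos by 1.99 ± 0.38 (SE) and its partner Jund by 0.63 ± 0.12 (SE). Macrophage markers gave 6 rises and 0 falls of 15, with a median of 0.59. Adgre1, a surface antigen of mouse macrophages, rose by 1.17 ± 0.29 (SE) and Mrc1, the mannose receptor, by 0.88 ± 0.22 (SE). The count of 6 became 3 without control 1, 3 or 4, without treated mouse 1 and with the 2 groups fitted alone. In treated mouse 1 the marker mean was 0.60 against -0.67 to -0.10 in the other treated mice and -1.11 to -0.10 in the controls. Neutrophil markers gave 0 rises and 3 falls of 10, and lymphocyte markers 2 rises and 3 falls of 12. After quantile normalization the neutrophil markers gave 2 rises and 1 fall, and after division by the spike-in slope 1 fall. Their mean was -4.03 in the controls, at strongly negative ratios where the liver genes also fell.

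Cell cycle genes rose in the joint comparison and in the hormone step. In the joint comparison 27 of 34 rose, 1 fell and 6 did not pass, with a median of 1.10. In the hormone step in MR-Cardio mice 20 of 34 rose and 0 fell (median 0.96), whereas 1 rose in untreated MR-Cardio mice against controls (median 0.10) and 0 passed with the hormone alone (median 0.60). Over all genes 0.950% rose in the hormone step and 5.79% in untreated MR-Cardio mice. These counts belong to comparisons that share mice, and no gene's departure from additivity passed.

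Bub1, a kinase of the mitotic checkpoint, lay between -3.17 and -2.47 in the controls and between -1.84 and 0.71 in the treated MR-Cardio mice, with a median of 0.25. It rose by 2.59 ± 0.37 (SE), of which the hormone step made 2.03 (adjusted p = 0.00764). Kif18b and Kifc1, kinesin motors of the spindle, rose by 2.12 ± 0.27 (SE) and 1.44 ± 0.16 (SE), with hormone steps of 1.71 (adjusted p = 0.00704) and 1.21 (adjusted p = 0.00109). Prc1, which bundles spindle microtubules, rose by 1.86 ± 0.25 (SE), Nusap1, a spindle-associated protein, by 1.75 ± 0.25 (SE), and Cdk1, the kinase that drives mitosis, by 1.38 ± 0.21 (SE). Neil3, a DNA glycosylase of dividing cells outside the list, rose by 2.00 ± 0.35 (SE), with a hormone step of 2.08 (adjusted p = 0.00704). The proliferation marker Mki67 and the topoisomerase Top2a, looked up after the values were seen, rose by 1.53 ± 0.27 (SE) and 1.68 ± 0.36 (SE), both with overlapping groups.

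The mean of the cell cycle list was -1.91, -1.87, -1.77, -1.75 and -1.49 in the controls and -0.29, -0.32, -1.63, -0.37, -1.19 and -0.75 in the treated MR-Cardio mice 1 to 6. Mouse 3 stayed inside the control range and the other 5 lay above it. Control mice given aldosterone lay between -1.29 and -1.11, above all 5 untreated controls, and untreated MR-Cardio mice between -1.84 and -1.42. The 20 rises of the hormone step became 13 without mouse 1, 2 or 4, 26 without mouse 3, 3 without the 5 arrays of low spike-in offset and 0 when only the 2 groups of that step were fitted.

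**Figure D4:**
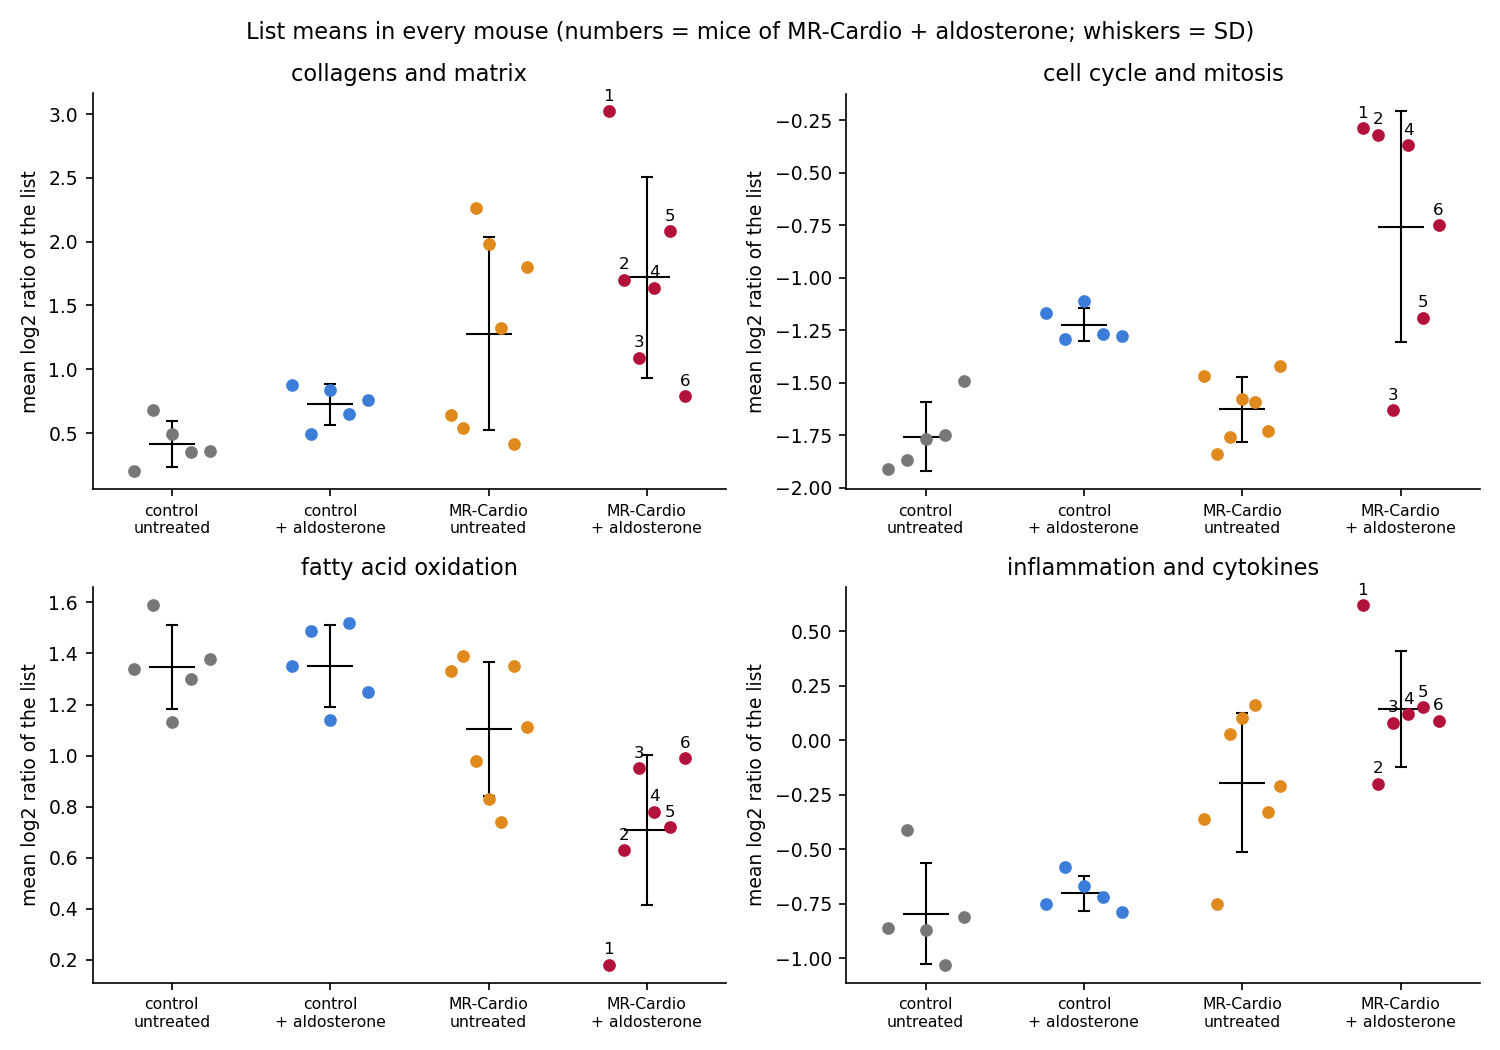
Mean log2 ratio per mouse over 4 lists (collagens and matrix, cell cycle, fatty acid oxidation, inflammation) in the 4 groups, with treated MR-Cardio mice numbered. Mouse 1 is highest for matrix (3.02) and inflammation (0.62) and lowest for fatty acid oxidation (0.18), and mouse 3 lies among the controls for the cell cycle (-1.63).

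Genes of calcium handling moved both ways, 6 higher and 7 lower of 25, with a median of 0.01. The 6 became 3 without control 3, without the low-offset arrays and when only the 2 groups were fitted. The sarcoplasmic reticulum pump gene Atp2a2 fell (-0.88 ± 0.15 SE), as did Pln, which encodes its inhibitor phospholamban (-0.99 ± 0.18 SE), and the fast-muscle pump Atp2a1 (-1.59 ± 0.20 SE). Fkbp1b, the protein that stabilises the ryanodine receptor, rose by 1.69 ± 0.18 (SE). For all 4 genes the groups were separate.

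Ion channel genes leaned lower, with 3 rises, 13 falls and 16 that did not pass, of 32, and a median of -0.32. Scn4b, given above, led the falls. Kcnd2, a subunit of the transient outward potassium current, and Kcnj2, the inward rectifier, both looked up after the values were seen, fell as well (-1.12 ± 0.19 SE and -0.97 ± 0.34 SE), the second with overlapping groups. Gjc1, the connexin of conduction tissue, rose by 0.79 ± 0.10 (SE). Gja1, the main ventricular connexin, looked up with them, differed by 0.17 ± 0.30 (SE, adjusted p = 0.73). In untreated MR-Cardio mice 3 of the 32 channel genes were higher and 5 lower, against 5.79% and 7.82% of all genes. Adrenergic signalling genes gave 4 rises and 1 fall of 12, with Adcy5, a cardiac adenylyl cyclase, higher (0.86 ± 0.12 SE) and Prkaca, the catalytic subunit of protein kinase A, lower (-0.52 ± 0.10 SE). The 4 rises became 2 without control 1, without treated mouse 4 and with the offset covariate, and the 1 fall became 2 without treated mouse 1, 3 or 5 and 3 in 3 other settings.

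Fatty acid oxidation, the main fuel pathway of the adult heart, moved one way. Of 31 genes 0 rose, 21 fell and 10 did not pass, with a median of -0.58. For 14 of the 31 all treated mice lay below all controls, against 9.60% of all genes. Ucp3, the muscle mitochondrial carrier, fell by 1.87 (SE 0.25), Acot2, a mitochondrial acyl-CoA thioesterase, by 1.61 (SE 0.23), and Hadhb, a subunit of the trifunctional protein, by 0.85 (SE 0.15). Acot1, the cytosolic thioesterase, fell by 2.18 (SE 0.42). The list mean was 1.34, 1.59, 1.13, 1.30 and 1.38 in the controls and 0.18, 0.63, 0.95, 0.78, 0.72 and 0.99 in the treated MR-Cardio mice, all below all controls. In untreated MR-Cardio mice 1 of these 31 genes was higher and 3 were lower, against 5.79% and 7.82% of all genes. The 3 are thus near the share of all genes. The hormone step called 1 lower, against 0.484% of all genes.

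Respiratory chain genes gave 0 rises and 16 falls of 37, with a median of -0.34. The complex I subunit genes Ndufb9 (-0.63 ± 0.12 SE) and Ndufs3 (-0.59 ± 0.12 SE) and the cytochrome oxidase subunit gene Cox4i1 (-0.62 ± 0.14 SE) fell. The 16 became 9 without treated mouse 1, 8 without control 4, 10 without control 5, 9 with the spike-in offset as a covariate and 8 when only the 2 groups were fitted. The list mean of mouse 1 was 0.66, against 1.29 to 1.41 in the other treated mice and 1.34 to 1.67 in the controls.

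Glycolysis genes moved both ways, 6 higher and 8 lower of 28. Slc16a3, the lactate exporter, rose by 3.01 ± 0.29 (SE), Pfkp, the platelet form of phosphofructokinase, by 1.51 ± 0.16 (SE) and Pgk1, phosphoglycerate kinase, by 0.71 ± 0.09 (SE). Fbp2, the muscle fructose bisphosphatase of glucose synthesis, fell (-2.98 ± 0.38 SE), with -1.85 in the hormone step (adjusted p = 0.00946). Of 23 one-carbon and amino acid genes 5 rose and 9 fell, the 5 becoming 3 without control 3 or treated mouse 1. Slc7a5, the large neutral amino acid transporter, rose by 1.85 ± 0.14 (SE), while Gldc, of the glycine cleavage system, and the cytosolic folate enzyme Mthfd1 fell (-0.75 ± 0.12 SE and -0.45 ± 0.09 SE).

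The corticosteroid-responsive list split, with 11 of 35 higher, 12 lower and 12 not past the threshold, and a median of -0.22. Fkbp5 and Lcn2, given above, were among the rises, and the stress gene Gadd45a was among the falls (-2.01 ± 0.28 SE). The acute phase gene Orm1, listed with them, fell as well (-1.27 ± 0.14 SE), at strongly negative ratios of -6.65 to -6.19 in controls where the liver genes also fell. Sodium transport genes gave 1 rise and 4 falls of 17. Atp1b1, the beta subunit of the sodium pump, rose by 1.09 ± 0.18 (SE), and Scnn1a, the epithelial sodium channel subunit, Wnk4, a kinase of renal salt transport, and Usp2, a deubiquitinase, fell (-0.95, -0.80 and -0.61). Receptors and enzymes of corticosteroid action gave 1 rise, that of Nr3c2, and 1 fall of 12, that of Fkbp4, a co-chaperone of the receptor complex (-1.17 ± 0.17 SE).

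Renin-angiotensin genes gave 2 rises and 3 falls of 10, the rises becoming 1 without control 1, 3, 4 or 5 or treated mouse 1 or 5. Mas1, the receptor of a shortened angiotensin peptide, lay between -0.96 and -0.46 in controls and between -3.82 and -2.96 in treated MR-Cardio mice, and it fell by 2.63 (SE 0.37, adjusted p = 2.67e-05). Agtr1a, the type 1 angiotensin receptor, fell by 1.11 (SE 0.24), and Ace, the converting enzyme, rose by 0.57 ± 0.16 (SE). Neither Mas1 nor Agtr1a passed in the hormone step, which measured -1.05 and -0.47.

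Of the stress and turnover lists, those of oxidative stress and protein breakdown leaned lower. Oxidative stress genes gave 5 rises and 11 falls of 30. Nqo1, a quinone reductase, fell by 1.72 (SE 0.20), Prdx1, a peroxiredoxin, by 0.48 (SE 0.09), and Mt2, a metallothionein that corticosteroids induce, rose by 2.54 ± 0.38 (SE). The 11 falls became 7 without control 1, 6 without control 2, 7 after median centring, 5 when only the 2 groups were fitted and 4 with the spike-in offset as a covariate. The 5 rises became 2 without control 1 or treated mouse 5, 3 without treated mouse 1 and in the last 2 of those settings, and 8 after division by the slope. Heat shock and chaperone genes gave 5 rises and 6 falls of 32, near the 13.3% and 15.8% of all genes. The mitochondrial chaperonin Hspd1 was lower (-0.86 ± 0.13 SE) and the co-chaperone Dnajb4 higher (0.64 ± 0.12 SE). The 5 rises became 3 without control 2, treated mouse 1 or treated mouse 2.

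Protein breakdown genes gave 2 rises and 10 falls of 23, which became 6 falls without treated mouse 2 and after median centring, 5 with the offset covariate and 4 when only the 2 groups were fitted. The autophagy kinase Ulk1 (-1.06 ± 0.13 SE), the muscle ubiquitin ligase Trim63 (-0.61 ± 0.08 SE) and Foxo3, a transcription factor of muscle atrophy (-0.98 ± 0.17 SE) fell, and Map1lc3a, the autophagosome protein LC3, rose by 0.72 ± 0.13 (SE). Interferon genes gave 0 rises and 5 falls of 27, the falls near the 15.8% of all genes. Ifi27 and the regulator Irf7 were lower (-1.23 and -1.19). The count of 5 became 1 without control 2 or treated mouse 3, 2 without treated mouse 2 or 5, and 3 without control 3, control 4 or treated mouse 1. The call of Irf7 was lost for 7 of 11 mice left out, and Irf7 ran from -2.65 to 0.69 among the controls.

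Cardiomyocyte markers passed the threshold in 35.7% of cases, against 29.1% of all genes. Of 14 measured 1 rose, 4 fell and 9 did not pass, with a median of -0.13. The 4 falls became 2 without control 1, control 4 or treated mouse 1, with the offset covariate and with the 2 groups fitted alone. Ckm, muscle creatine kinase, fell by 1.46 (SE 0.25) and Tnni3, cardiac troponin I, by 0.34 (SE 0.12, adjusted p = 0.0401; call lost for 6 of 11 mice left out), while Nkx2-5, the cardiac transcription factor, rose by 0.27 ± 0.07 (SE; call lost after division by the spike-in slope). Tnnt2, cardiac troponin T, and Actc1, cardiac alpha-actin, looked up after the values were seen, differed by 0.00 ± 0.14 (SE, adjusted p = 1.0) and -0.21 ± 0.12 (SE, adjusted p = 0.214). The marker mean was 1.78 to 2.05 in the controls and 1.06, 1.82, 1.90, 1.67, 1.84 and 1.85 in the treated MR-Cardio mice, so mouse 1 lay far below the rest and mouse 4 just below the control range. Of the 10 atrial markers, whose mean was -2.12 in the controls, Sln and Myl7 averaged -5.27 and -4.84 there. The labelled ventricle was not tested by these ratios to the pool.

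Of 13 skeletal muscle markers 5 rose and 1 fell, with a median of 0.21. The rises were led by Tnnt3, Tnni2 and Tnnt1, and the fall was that of Atp2a1. Of 10 atrial markers 3 rose and 4 fell, the rises becoming 1 without control 1, 3 or 4 or treated mouse 4. Mural cell markers gave 5 rises and 0 falls of 12, among them Des, desmin, which cardiomyocytes also make (1.36 ± 0.20 SE), and Cnn1, smooth muscle calponin (1.91 ± 0.55 SE, adjusted p = 0.0119). Endothelial markers gave 1 rise and 2 falls of 14, conduction markers 0 rises and 1 fall of 10, and mesothelial markers 0 calls of 7. Markers of adipocytes, brown adipocytes, erythroid cells and glia gave 0 to 2 rises and 1 to 2 falls each. Several of these marker counts of 3 or fewer, and those of lymphocytes and endothelium, changed when 1 mouse was left out, for example from 1 to 3 erythroid falls without control 2. Genes of kidney and spleen, which are also tissues of the reference pool, gave 0 rises with 5 falls of 9 and 5 falls of 8, and those of brain 1 rise and 3 falls of 11.

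The treated MR-Cardio mice varied among themselves. Mouse 1 had the lowest Nr3c2 (2.54) and Amy1 (0.23), the highest matrix, inflammation and macrophage means, and the lowest cardiomyocyte, fatty acid oxidation and respiratory chain means of the 6. Ccn2 was 3.63 in mouse 1 and 4.05 in mice 2 and 4, so it did not follow the same order. Hypertrophy genes varied less, with list means of 1.60 to 2.01 in treated MR-Cardio mice against 0.89 to 1.11 in controls. Leaving out mouse 1 left 5878 genes called in the joint comparison, and leaving out each of the 11 mice in turn left 5458 to 6226.

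Whether receptor and hormone together did more than the sum of each alone was tested gene by gene. The departure from additivity passed for 0 of 21892 genes by limma (0.00%), with a smallest adjusted p of 0.684. An unadjusted p under 0.05 was reached by 1197 genes, close to what chance alone would pass. The joint differences of several genes were larger than their sums without passing that test. Myh7 had single effects that sum to 1.51 and a joint difference of 3.10, a departure of 1.59 ± 0.72 (SE, adjusted p = 0.901). Rbp4, the retinol carrier, had 0.81 and 2.83, a departure of 2.02 ± 0.51 (SE, adjusted p = 0.87). Cib3, a calcium-binding protein, had -1.06 and -3.36, a departure of -2.31 ± 0.58 (SE, adjusted p = 0.87). Bub1 had 2.09 and 2.59, a departure of 0.50 ± 0.51 (SE, adjusted p = 0.944), with 1.54 ± 0.39 (SE, adjusted p = 0.56) for the hormone alone in controls.

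Rbp4 was also among the genes with the clearest hormone step in MR-Cardio mice. It lay between -7.15 and -6.74 in untreated controls and between -4.72 and -3.14 in treated MR-Cardio mice, with no overlap. The joint rise was 2.83 ± 0.36 (SE, adjusted p = 1.15e-05), of which the hormone step made 2.07 (adjusted p = 0.00764) and the receptor alone 0.77 (adjusted p = 0.16). The liver genes, also at strongly negative ratios, fell in the joint comparison. The part of the array difference in the Rbp4 values was not tested.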

How the data were processed

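Agilent 2-colour arrays measured ventricular RNA of 23 mice (Cy5) against a pooled reference (Cy3), all in 1 dye orientation per the labels. The deposited value table holds log2 ratios made by the authors with Agilent Feature Extraction 10.7.3.1 (submitters' processing notes); the sources used here give neither background correction nor normalization. The log base 2 and the direction, heart over reference, were inferred from the spike-in probes and from heart and liver genes. From 39485 lines, 56 control probes were left out; 30625 of 39429 probes had 1 gene symbol and were averaged to 21892 genes, and 8804 unnamed probes were not used. There was no missing value and no column outside the 23 samples.

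The test was limma's (3.58.1, under R 4.3.3): 1 mean per group over all 23 arrays, eBayes, two-sided, Benjamini-Hochberg over all genes, threshold 0.05, SE from the moderated fit (residual df 19, prior df 2.04). Contrasts were the joint difference, its 4 single steps and the departure from additivity. Array measures were compared by exact permutation with scipy 1.17.1. On simulated data for the joint comparison over 21892 genes, 24, 30 and 49 of 50 genes changed by 0.5, 1 and 2 log2 units were recovered, and 40 of 50 changed by -1. In that simulation, with independent noise per gene, 14 unchanged genes were called. Far fewer genes were changed there than were called in the real comparison, so these counts do not give its recovery. The number of arrays limits the precision. Sample numbers do not pair mice across groups: each mouse has its own animal number, and same-numbered deviations correlated between -0.079 and 0.007. The labels show separate mice, so p-values measure the spread between animals.

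Genes named were the 15 largest rises and falls past the threshold (clone-like names left out), up to 4 members per list by smallest p, the 5 genes of smallest p in each other contrast and Nr3c2, Myh7, Ccn2, Nppa, Nppb, Myh6, Col1a1, Col3a1, Sgk1, Tsc22d3, Fkbp5, Lcn2, Nr3c1 and Hsd11b2; other names are marked as chosen after their values were seen. The groups, lists and members were chosen with earlier results of these data known. Promoters came from RefSeq (GRCm38.p6). Alternatives were median centring, quantile normalization, the offset of the spike-in probes as covariate, division by their slope, the most variable probe per gene, leaving out the genes of lowest mean ratio (16419 kept), the groups compared fitted alone, a trended robust prior, array weights, a replicate block, other thresholds, leaving out each mouse and, both chosen after seeing the data, keeping genes of mean ratio above 0 and leaving out 5 arrays of low spike-in offset.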

Additional observations from a re-analysis of the deposited data

Results flagged for a closer look

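In 35 of 382 groups of mice examined over the named genes (9.16%), 1 mouse stood far from the others of its group by Dixon's criterion, which chance would meet in about 1 in 20 groups. Each value is a log2 ratio, and the genes of mitochondria and muscle come first. In treated MR-Cardio mouse 1 the fatty acid oxidation gene Hadhb read 1.16, Ndufb9 -0.06, Ndufs3 0.52, Cox4i1 -0.48, the autophagy kinase gene Ulk1 -0.16, Tnni3 0.69, Myh6 0.58, Lpl, the lipoprotein lipase gene, 0.94 and Cox8b 0.96, each the lowest of the 6. In that mouse the cyclase gene Adcy5 was also lowest, at 1.40. The same mouse was highest for the collagen crosslinker Lox at 6.86 and for the macrophage receptor gene Mrc1 at 1.72, and it stood apart for Hemgn at 0.56, Ngp at -5.51, Slc22a6 at -4.52, Umod at -5.06 and Apom at -5.58.

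Among the other treated MR-Cardio mice, mouse 5 stood apart for Cpxm2 at 0.81, Rcan1 at 2.44 and Cd79b at -5.66, and mouse 3 for Dnajb4 at 3.19. Control 3 was low for Tmprss4 at -3.03, Hamp2 at -2.16 and Nr3c2 at 0.18, and it stood apart for Pfkp at -0.22, Cox8b at 1.77, Dbh at 0.48 and Prph at -3.16. Control 1 stood apart for Klk1b16 at -4.23 and Cr2 at -1.56, and control 2 for Timp1 at 0.70 and Cidea at 1.70. Control 5 stood apart for Bmp2 at -2.14, Cd3e at -1.17 and Kifc1 at -1.75. The part of any of these mice in the group differences is given by the fits without them, where a call changed.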

How the results depend on the processing

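Of 191 named genes 182 passed in the joint comparison, and 149 of those kept their direction and their side of the threshold in every fit run for them, out of 11 without 1 mouse and 12 other settings; genes removed by a filter on low ratios have no value there. Over 4215 pairs of gene and setting, 128 lost the call, 9 gained it and 13 turned direction. The 6362 joint calls became 4188 without the genes of lowest mean ratio (16419 genes tested) and 3711 among the 11364 genes of mean ratio above 0. They became 3892 at a threshold of 0.01 and 1349 at 1 log2 unit or more. Higher calls became 1878, 1582, 1727 and 757, and lower calls 2129, 2165 and 592 in the last 3 of these. The share of tested genes that were called was lower than over all genes in the first of these settings and higher in the second. The other settings per gene gave 5057 (offset covariate) to 6787 (array weights) joint calls, and each named probe on its own gave 8792. Of the calls per gene 45.8% were higher, against 42.6% (mean ratio above 0) to 48.3% (median centring) over all settings. Fits without 1 mouse gave 5458 to 6226 joint calls, 2459 to 2867 higher and 2967 to 3359 lower.

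The hormone step in MR-Cardio mice depended most on the fit. Its 314 calls became 0 with its groups alone, 94 without the lowest genes, 99 above 0, 76 at 0.01, 107 at 1 log2 unit and 138 to 413 without 1 mouse, namely 199, 152 and 138 without treated mice 1, 2 and 4. With sample numbers as a replicate block, which do not pair the mice, it was 154, while the joint comparison gave 6275. With aldosterone on both sides 5487 became 3331 above 0, 3151 at 0.01, 1087 at 1 log2 unit and 4946 to 5471 without 1 mouse. The receptor-alone 2978 became 1614, 1507, 1353 and 499 in the same 4 settings, 1086 without the 5 low-offset arrays and 2199 to 2759 without 1 mouse. The hormone alone called 8 genes with its groups alone and 0 to 1 without 1 mouse. No setting called a departure from additivity. The spike-in slope difference of 0.0461 ranged from 0.044 to 0.0493.

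Directions turned for Tsc22d3 (-0.11 with the offset covariate, and -0.03, -0.01 and -0.06 without control 1 or treated mice 4 or 5, in a range of -0.06 to 0.11 without 1 mouse), Camp (0.39 after quantile normalization, 0.00 divided by slope), Cd79b (0.04) and Syt1 (0.08) after quantile normalization, and Tspoap1 (0.03 by slope, 0.09 by most variable probe, 0.05 by weights, 0.02 and 0.01 without control 3 or treated mouse 1, in a range of -0.14 to 0.02 without 1 mouse). The cause was not tested.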
